A study of Homo sapiens with 6 samples.

Results

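The nuclear genes of oxidative phosphorylation were taken from the count tables as the symbols that begin with NDUFA, NDUFB, NDUFC, NDUFS, NDUFV, UQCR, COX4 to COX8 or ATP5, or that read SDHA, SDHB, SDHC or SDHD, and that hold no hyphen. This gave 97 of 26485 symbols, of which 47 fell to complex I, 4 to complex II, 10 to complex III, 17 to complex IV and 19 to complex V. A filter on low counts left 85 of them among 13632 tested genes, and 12 were not tested. The symbols are a generation older than those now in use, so ATP5A1 stands for the gene now called ATP5F1A. Of the 85 tested genes, 74 encode structural subunits. The other 11 are NDUFAF assembly factors of complex I, the supercomplex factor COX7A2L, the UQCRH retrocopy UQCRHL, and ATP5S and ATP5SL, which carry an ATP synthase name but are not subunits of it.

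RNA was sequenced from AF22, an established human line of neural stem cells grown from induced pluripotent stem cells. One group of 3 libraries came from cells with a control short hairpin RNA, labelled shControl, and the other group of 3 from cells labelled COMMD3/COMMD3-BMI1_KD, called knockdown here. The labels give the genotype of all 6 libraries as WT and do not describe the knockdown reagent, how long it acted, or whether it was 1 clone or a pool. Whether replicates came from separate cultures is not stated, so the p-values reflect only the spread between these libraries, and that spread may be technical.

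Oxidative phosphorylation takes place in the inner mitochondrial membrane. Complex I and complex II pass electrons from NADH and succinate to coenzyme Q, complex III passes them on to cytochrome c and complex IV to oxygen, while complexes I, III and IV pump protons out of the matrix. Complex V, the ATP synthase, lets the protons back in and makes ATP, and neural stem cells are known to lean on glycolysis more than the neurons they give rise to. Every complex except II also holds subunits encoded by mitochondrial DNA, and no symbol of that genome was among those in the tables.

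The promoters of nuclear respiratory genes are known for short motifs of 3 kinds of factor: nuclear respiratory factor 1 (core CGCATGC), GA-binding protein of the ETS family (core CCGGAAG) and YY1 (core ATGGCGG). RefSeq promoters, 250 bases before to 50 bases after the start of a gene on GRCh38.p14, were found for 74 of the 97 genes. The 4 sequences printed here were chosen because they show the range among genes whose RNA differed between the groups: SDHD and SDHB hold all 3 cores, UQCRFS1 and NDUFAF3 none of them. Each runs 5′ to 3′ on the strand of its gene, and capitals mark a match to 1 of these 3 cores on either strand.
SDHD (chr11:112086623-112086922, plus strand): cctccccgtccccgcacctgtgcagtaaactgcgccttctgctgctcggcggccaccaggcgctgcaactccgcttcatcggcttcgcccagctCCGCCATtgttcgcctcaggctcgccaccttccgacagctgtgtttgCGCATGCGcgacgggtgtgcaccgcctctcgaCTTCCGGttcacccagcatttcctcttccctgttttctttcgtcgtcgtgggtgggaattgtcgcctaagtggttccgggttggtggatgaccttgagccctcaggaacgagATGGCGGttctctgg
SDHB (chr1:17053983-17054282, minus strand): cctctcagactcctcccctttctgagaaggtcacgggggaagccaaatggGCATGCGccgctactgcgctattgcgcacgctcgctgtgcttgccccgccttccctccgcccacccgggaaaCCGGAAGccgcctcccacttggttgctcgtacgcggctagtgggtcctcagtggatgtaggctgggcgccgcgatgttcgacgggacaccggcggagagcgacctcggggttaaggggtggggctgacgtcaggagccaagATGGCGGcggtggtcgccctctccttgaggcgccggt
UQCRFS1 (chr19:29213102-29213401, minus strand): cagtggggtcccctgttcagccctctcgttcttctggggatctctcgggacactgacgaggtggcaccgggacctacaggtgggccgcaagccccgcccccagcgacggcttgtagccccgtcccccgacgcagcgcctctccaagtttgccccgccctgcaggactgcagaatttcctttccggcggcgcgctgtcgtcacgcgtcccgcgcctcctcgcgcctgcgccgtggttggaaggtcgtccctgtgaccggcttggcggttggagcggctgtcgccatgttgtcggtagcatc
NDUFAF3 (chr3:49020202-49020501, plus strand): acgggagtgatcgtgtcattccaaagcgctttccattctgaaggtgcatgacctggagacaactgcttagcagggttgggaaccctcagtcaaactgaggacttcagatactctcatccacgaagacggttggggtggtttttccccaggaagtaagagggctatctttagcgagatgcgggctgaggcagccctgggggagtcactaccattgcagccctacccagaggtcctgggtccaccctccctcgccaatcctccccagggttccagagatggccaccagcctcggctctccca

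The comparison asked how the RNA of these genes differed between knockdown and control cells. Most subunit genes lay slightly above control: 34 of the 85 tested genes rose, 1 fell and 50 did not pass the test of edgeR (quasi-likelihood, Benjamini-Hochberg adjusted p under 0.05 over all tested genes). Over all 13632 tested genes, 15.3% were called higher and 18.1% lower, 33.3% in either direction. The fitted log2 fold change was above 0 for 74 of the 85 genes, and for 50.4% of all tested genes. Its median was 0.13 (1.09-fold), against 0.0015 over all tested genes. Called rises lay between a log2 fold change of 0.12 for UQCRC2 and 0.34 for UQCRFS1, and the 1 called fall was NDUFAF3 at -0.18. None of the 35 called genes differed by as much as 1.5-fold.

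**Figure D1:**
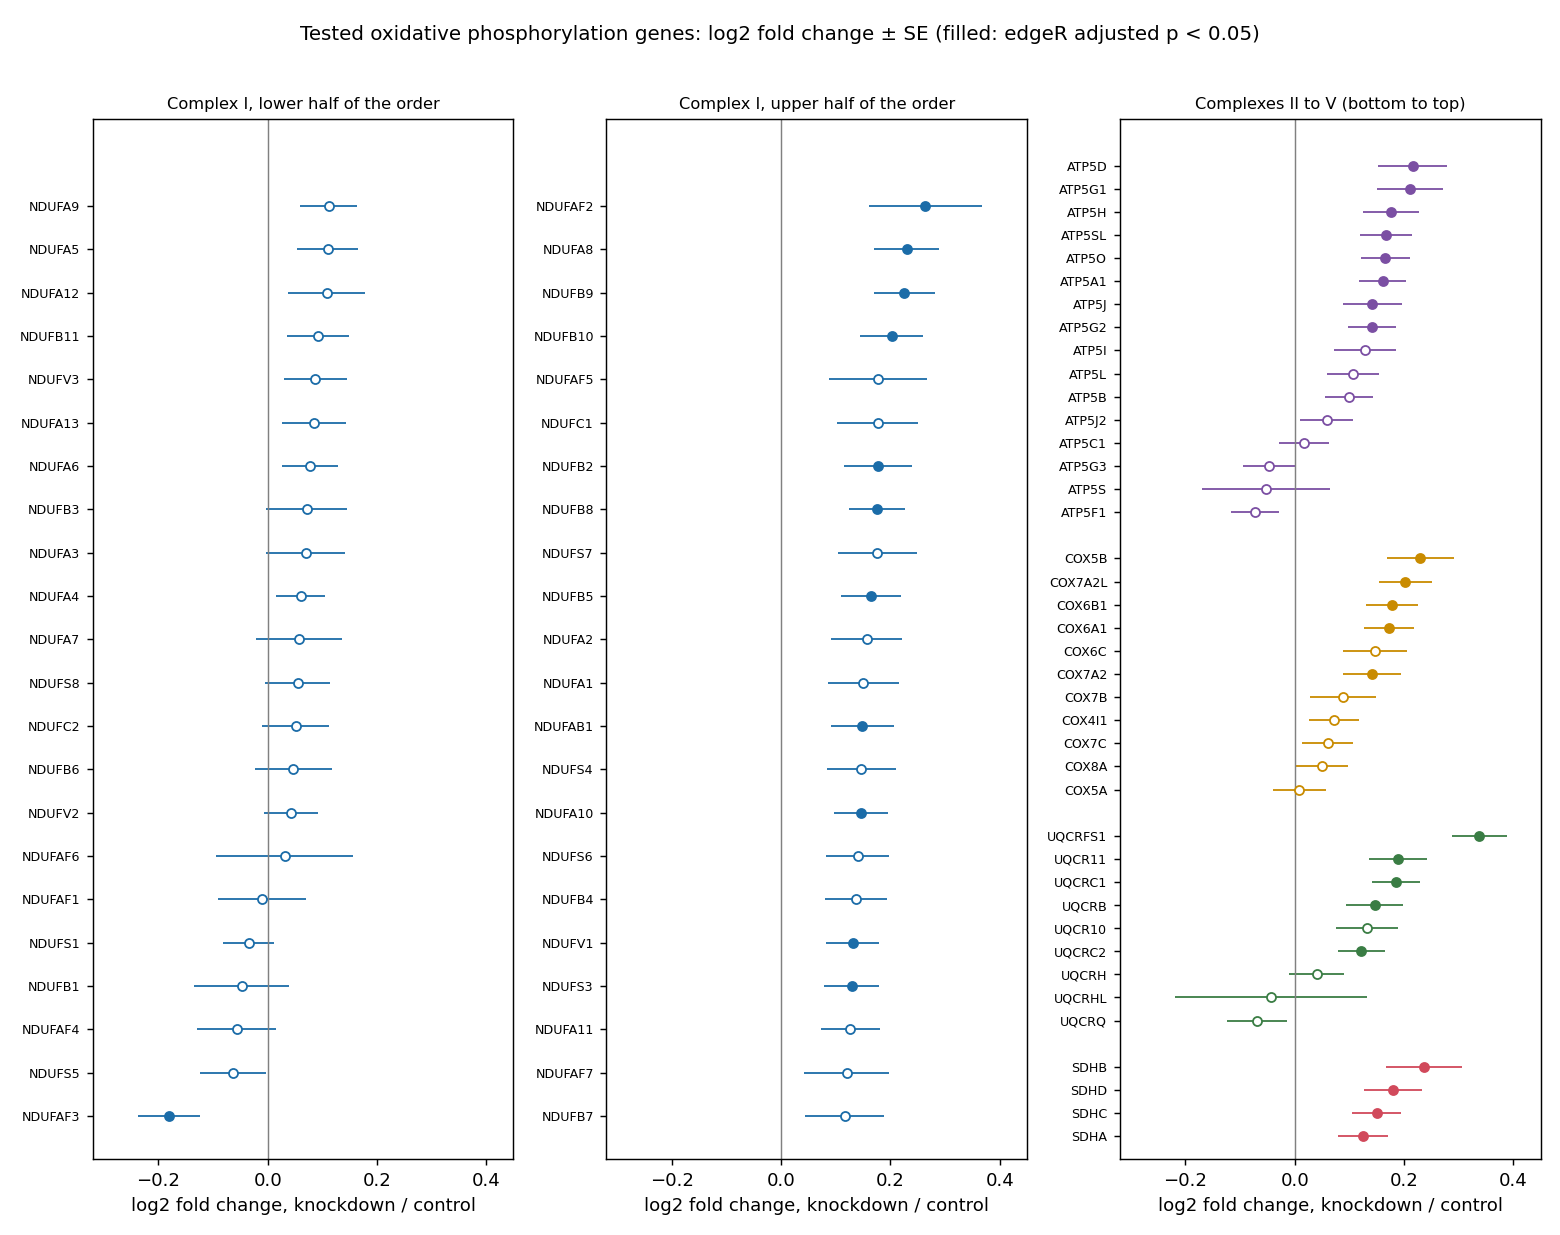
Log2 fold change of knockdown over control (x axis) for 84 of the 85 tested genes (y axis), with whiskers of 1 SE, grouped by complex; filled points passed the test. The called rises lie right of 0 in all 5 complexes, NDUFAF3 is the only called fall, and UQCRFS1 has the largest log2 fold change at 0.34.

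Read without a model, the libraries of 39 genes were all higher in knockdown than in control, those of 2 genes were all lower, and those of 44 overlapped. Among all tested genes the first pattern held for 21.6%, the second for 22.7%, and either for 44.3%. The genes that were lower in all 3 knockdown libraries were NDUFAF3 and ATP5F1. Summed over the 85 genes, the level was 6587, 6568 and 6659 CPM (counts scaled to the same library total) in control replicates 1 to 3 and 7301, 7183 and 6886 CPM in knockdown replicates 1 to 3. Every knockdown library thus lay above every control library, and knockdown replicate 3 came nearest. The means were 6604 ± 48.1 and 7124 ± 214 CPM (SD, n = 3 each), a ratio of 1.08. In bulk RNA, a change in the cells that make up a sample and a change of RNA per cell cannot be told apart. The count of called rises was 22 without control replicate 1, without knockdown replicate 1 or without knockdown replicate 2, and 39 without knockdown replicate 3. DESeq2 called 14 higher and 0 lower, where 8.58% and 12.4% of all genes were called.

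The libraries held 7294687 to 11579849 counts, and a count of 0 leaves room for 0.259 to 0.42 CPM, depending on the library, from counting error alone. COMMD3, a subunit of the endosomal Commander complex, was at 29.7 ± 2.04 CPM in control and 11.6 ± 1.22 CPM in knockdown (log2 fold change -1.37, edgeR's adjusted p = 2.34e-12), and the readthrough symbol COMMD3-BMI1 had no count in any library. BMI1 averaged 110.2 ± 2.41 CPM in control libraries against 104.8 ± 1.79 CPM in knockdown libraries (edgeR's adjusted p = 0.206). Sums of the pluripotent, neuron, astrocyte, oligodendrocyte lineage and fibroblast marker lists lay apart between the groups. Those of the neural stem cell list overlapped. Calls in these lists are to be read beside the 15.3% of all tested genes called higher and the 18.1% called lower. The shares were 20.5% and 22.4% at an unadjusted p under 0.05, and 8.58% and 12.4% with DESeq2. Of 9 tested neural stem cell markers 1 rose and 3 fell, SOX2 from 288 ± 6.43 to 259.9 ± 8.20 CPM (not without control replicate 2 or knockdown replicate 3, edgeR's adjusted p = 0.0579 and 0.0562), and the summed level was 2564 to 2723 CPM in control and 2565 to 2662 CPM in knockdown, with HES5 at 0. The 1 rise among the neural stem cell markers was MSI1. Its call was lost without control replicate 1, 2 or 3 or knockdown replicate 1 or 2 (edgeR's adjusted p between 0.0517 and 0.23). Of the pluripotent cell list, LIN28A rose and POU5F1 fell, and the sum was 531 to 536 and 635 to 693 CPM, with TDGF1 at 0. Sums for the neuron list (0 of 4 called by edgeR, 2 lower at an unadjusted p under 0.05, 0 by DESeq2) were 689 to 737 and 642 to 671 CPM with NEUROD1 and STMN2 at 0. Those for the astrocyte list (1 of 3 lower) were 316 to 343 and 297 to 311 CPM with GFAP at 0. The oligodendrocyte lineage list (2 of 4 lower) had 185 to 193 and 158 to 165 CPM, and the fibroblast list (1 of 5 higher, 2 lower) 175 to 192 and 151 to 169 CPM. The fall of LUM in the fibroblast list was lost without control replicate 1 or 2 or knockdown replicate 1, 2 or 3 (0.0533 to 0.21). The part of these marker shifts in the results on respiratory genes was not tested. Leukocyte markers summed to under 1 CPM in every library, and none was tested.

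Across the complexes, the share called higher was 12 of 45 for complex I, 4 of 4 for complex II, 5 of 9 for complex III, 5 of 11 for complex IV and 8 of 16 for complex V. The median log2 fold changes were closer together, at 0.12, 0.17, 0.13, 0.14 and 0.14 in that order. These counts include the matches that are not structural subunits. Among structural subunits alone, the shares were 11 of 38, 4 of 4, 5 of 8, 4 of 10 and 7 of 14. Their medians were 0.12, 0.17, 0.14, 0.12 and 0.14. A difference between complexes was not tested. Set against the control mean of each gene, the median of complex II genes was 0.18, 0.18 and 0.13 (log2) in knockdown replicates 1 to 3, and that of complex IV genes 0.21, 0.15 and 0.04. In each of the 5 complexes all 3 knockdown libraries lay above all 3 control libraries. Knockdown replicate 3 was the lowest of the knockdown libraries in 4 of them, and replicate 2 in complex III.

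**Figure D2:**
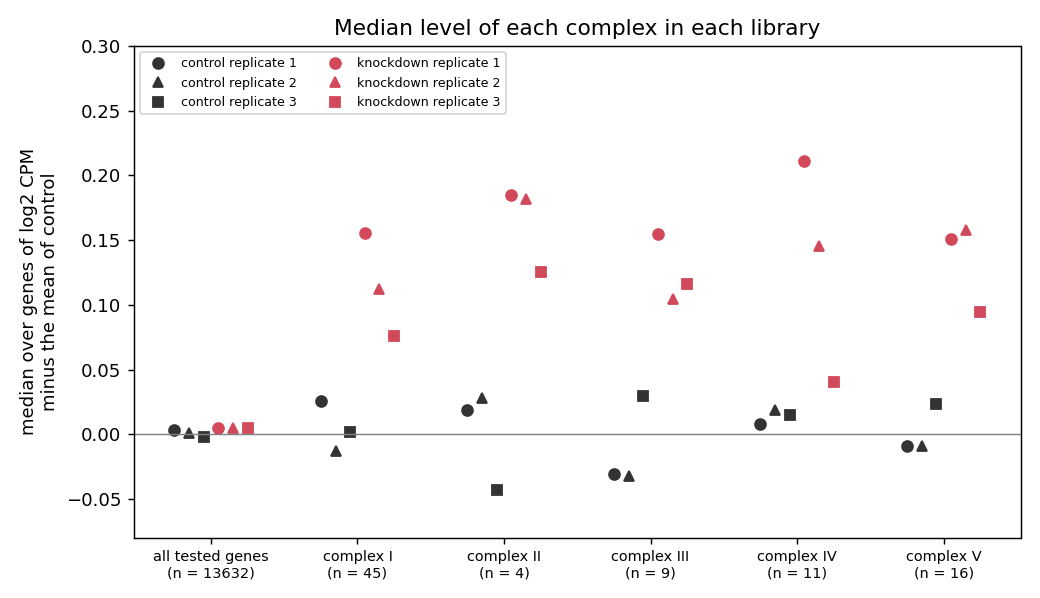
Median over the genes of each complex of the log2 CPM minus the control mean of the gene (y axis, log2) in each of the 6 libraries (points), by complex (x axis). Knockdown libraries lie above control libraries in each complex, and the widest spread among them is in complex IV, from 0.04 to 0.21.

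Complex I, the NADH dehydrogenase, is the largest complex of the chain. Its 7 tested nuclear core subunits carry the flavin and the iron-sulfur clusters or form the coenzyme Q site, and NDUFV1 and NDUFS3 were among those that rose. NDUFV1, which binds NADH and the flavin, was at 84.0, 86.0 and 91.9 CPM in control and 98.7, 93.9 and 92.9 CPM in knockdown. Its libraries did not overlap, though the highest control and the lowest knockdown library were close, and the log2 fold change was 0.13 (SE 0.0488, edgeR's adjusted p = 0.0378). NDUFS3, of the coenzyme Q module, had a log2 fold change of 0.13 (edgeR's adjusted p = 0.0496). NDUFS1, the largest iron-sulfur subunit, was at 128, 128 and 135 CPM in control and 124, 121 and 134 CPM in knockdown. Its groups overlapped, with a log2 fold change of -0.03 (95% interval -0.13 to 0.06, edgeR's adjusted p = 0.608). NDUFS7 had the largest log2 fold change of the core subunits, 0.18, and did not pass the test (adjusted p = 0.0606). Both lost their call without control replicate 1 (edgeR's adjusted p = 0.177 for NDUFV1 and 0.0766 for NDUFS3), and likewise without control replicate 2, knockdown replicate 1 or knockdown replicate 2, with adjusted p between 0.0698 and 0.227. NDUFS3 also lost it without control replicate 3 (adjusted p = 0.0825).

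Accessory subunits, which surround the core and are needed to assemble or hold it, were called higher in 8 of 31 cases and lower in 0 by edgeR. At an unadjusted p under 0.05, 16 were higher and 0 lower, where 20.5% and 22.4% of all tested genes were, and DESeq2 called 2 higher and 0 lower. Of the 11 tested NDUFB genes, whose products sit in the membrane arm, 5 rose, and of the 14 NDUFA genes with NDUFAB1, 3 rose. NDUFA8 was at 49.7, 44.9 and 47.4 CPM in control and 56.1, 56.9 and 54.2 CPM in knockdown. NDUFB9 was at 58.4, 61.1 and 59.97 CPM in control and 72.3, 72.6 and 64.8 CPM in knockdown. In both, each knockdown library lay above each control library, with log2 fold changes of 0.23 (SE 0.0593, edgeR's adjusted p = 0.00318) and 0.23 (SE 0.0558, adjusted p = 0.00224), and 21.0% of the exon bases of NDUFB9 lie under genes of the other strand. Both were called under each alternative run. NDUFB10, NDUFB8 and NDUFB2 of the same arm had log2 fold changes of 0.20, 0.18 and 0.18, and NDUFB5 had 0.16. NDUFA10, a subunit related to nucleoside kinases, had 0.15, as did NDUFAB1, the mitochondrial acyl carrier protein. The 23 accessory subunits that did not pass the test lay between -0.06 for NDUFS5 and 0.18 for NDUFC1 (edgeR's adjusted p = 0.0631). NDUFA4 was placed in complex I by its symbol and is now known as a subunit of complex IV; its log2 fold change was 0.06 (edgeR's adjusted p = 0.321). Without control replicate 1 or knockdown replicate 1, 5 complex I genes were called higher, and 7 without knockdown replicate 2. Apart from NDUFA8, NDUFB9 and NDUFB8, each called accessory subunit lost its call without at least 1 library, with edgeR's adjusted p at 0.074 for NDUFB10 (control 1), up to 0.129 for NDUFA10 (control 1 or knockdown 2), up to 0.112 for NDUFB5 (control 3, knockdown 1 or 2), up to 0.182 for NDUFAB1 (control 1 or 3, knockdown 1 or 2) and up to 0.236 for NDUFB2 (control 1 or 2, knockdown 1).

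Assembly factors of complex I are not part of the finished complex, and of the 7 that the symbols took in, NDUFAF2 rose and NDUFAF3 fell. NDUFAF3 was at 54.6, 56.0 and 57.7 CPM in control and 49.3, 49.2 and 49.4 CPM in knockdown. The knockdown libraries were nearly equal and all lay below the control libraries (log2 fold change -0.18, SE 0.0569, edgeR's adjusted p = 0.0141). It did not pass without control replicate 3 (edgeR's adjusted p = 0.0524) and in DESeq2 (adjusted p = 0.0959), and 21.7% of the exon bases of NDUFAF3 lie under DALRD3 on the other strand. The gene lies at chr3:49020459-49023495 on the plus strand of GRCh38. NDUFAF2, a factor that binds a late intermediate of complex I, was at 15.5, 14.4 and 16.95 CPM in control and 19.4, 16.9 and 19.6 CPM in knockdown. Its groups overlapped by 1 library on each side, with a log2 fold change of 0.26 (SE 0.103, edgeR's adjusted p = 0.0481) that lost its call without control replicate 1, control replicate 2, knockdown replicate 1 or knockdown replicate 3 (adjusted p between 0.107 and 0.16). The other 5 factors did not pass the test, among them NDUFAF1 at -0.01 and NDUFAF5 at 0.18 (edgeR's adjusted p = 0.131).

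Complex II, succinate dehydrogenase, is both an enzyme of the citric acid cycle and an entry point of the chain, and all 4 of its subunits are nuclear. All 4 rose. SDHB, the iron-sulfur subunit, was at 38.5, 37.9 and 35.4 CPM in control and 48.3, 42.8 and 41.3 CPM in knockdown. The groups did not overlap, and knockdown replicate 1 was the highest (log2 fold change 0.24, SE 0.0694, edgeR's adjusted p = 0.00875). SDHD, a membrane anchor whose promoter, like that of SDHB, holds all 3 cores, was at 69.5, 68.4 and 63.2 CPM in control and 76.9, 79.7 and 72.7 CPM in knockdown. SDHC, the other anchor, was at 136, 146 and 143 CPM in control and 159, 159 and 152 CPM in knockdown. Neither anchor had overlapping groups, and their log2 fold changes were 0.18 (edgeR's adjusted p = 0.00963) and 0.15 (adjusted p = 0.00998). SDHA, the catalytic flavoprotein, was at 91.9, 94.2 and 91.6 CPM in control and 98.01, 104 and 102 CPM in knockdown, again without overlap (log2 fold change 0.13, edgeR's adjusted p = 0.0352). Of the 4 rises, 2 were called without control replicate 1, control replicate 3 or knockdown replicate 2, and DESeq2 called 1. Each lost its call somewhere: SDHB without knockdown replicate 1 (edgeR's adjusted p = 0.0907), SDHC without control replicate 1 (0.0811), SDHD without control replicate 3 (0.0509) or knockdown replicate 2 (0.0679), and SDHA without control replicate 1, control replicate 3, knockdown replicate 2 or knockdown replicate 3 (0.0588 to 0.144).

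Complex III, the cytochrome bc1 complex, held the largest single difference among the 85 genes. UQCRFS1, the Rieske iron-sulfur protein that hands electrons to cytochrome c1, was at 73.4, 78.6 and 78.2 CPM in control and 101, 97.6 and 91.1 CPM in knockdown. Every knockdown library stood well above every control library. The means were 76.7 ± 2.91 and 96.7 ± 5.13 CPM (SD, n = 3 each), a 1.26-fold difference (log2 fold change 0.34, SE 0.0508, edgeR's adjusted p = 4.61e-06). UQCRC1, a core protein related to mitochondrial processing peptidases, was at 135, 136 and 144 CPM in control and 158, 157 and 155 CPM in knockdown. Its groups did not overlap either, and the knockdown libraries were close together (log2 fold change 0.19, SE 0.0438, edgeR's adjusted p = 0.00145). The second core protein, UQCRC2, had a log2 fold change of 0.12 (edgeR's adjusted p = 0.0294). Of the 5 small subunits, UQCR11 rose by a log2 fold change of 0.19 (edgeR's adjusted p = 0.00621) and UQCRB, which lines the coenzyme Q site, by 0.15 (adjusted p = 0.0291). UQCRQ lay at -0.07 (95% interval -0.18 to 0.04) and UQCRH, the hinge protein, at 0.04 (-0.06 to 0.14), neither past the test. UQCRHL, an intronless copy of UQCRH, was at 4.97 CPM in control, and reads of the 2 may not have been separated. Without knockdown replicate 1, 3 of the 5 rises were called (UQCRB at an edgeR's adjusted p of 0.177 and UQCRC2 at 0.0798), and the median log2 fold change fell from 0.13 to 0.0789 when the trend on length and GC content was removed. UQCRB also lost its call without control replicate 2 (0.107) or control replicate 3 (0.104), and UQCRC2 without control replicate 1 (0.131), knockdown replicate 2 (0.052) or knockdown replicate 3 (0.0581).

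Complex IV, cytochrome c oxidase, had its nuclear subunits around a catalytic core that mitochondrial DNA encodes, and 4 of the 10 tested structural subunits rose, as did COX7A2L. COX5B, which binds zinc on the matrix side, was at 50.8, 47.4 and 51.8 CPM in control and 60.5, 61.7 and 53.9 CPM in knockdown. No knockdown library fell among the controls, but knockdown replicate 3 lay close to control replicate 3 (log2 fold change 0.23, SE 0.0614, edgeR's adjusted p = 0.00433). COX7A2L, which joins complexes III and IV into supercomplexes, was at 94.4, 102 and 97.1 CPM in control and 119, 110.3 and 107 CPM in knockdown. Its groups did not overlap, with a log2 fold change of 0.20 (SE 0.0487, edgeR's adjusted p = 0.00172). COX6B1 and COX6A1, both on the outer face or rim of the enzyme, had log2 fold changes of 0.18 (edgeR's adjusted p = 0.00412) and 0.17 (adjusted p = 0.00429). COX7A2 had 0.14 (edgeR's adjusted p = 0.0379), its libraries overlapped, and the call was lost without control replicate 2, control replicate 3, knockdown replicate 1 or knockdown replicate 2 (adjusted p between 0.0893 and 0.211). COX5A, which pairs with COX4 in the early steps of assembly, was at 102, 109 and 108 CPM in control and 106, 112 and 102 CPM in knockdown. Its groups overlapped fully (log2 fold change 0.01, 95% interval -0.09 to 0.11, edgeR's adjusted p = 0.913). COX4I1, COX7C and COX8A lay between 0.05 and 0.07 and did not pass the test, so the subunits of 1 enzyme did not all show the same called difference, and the differences between them were not tested. With NDUFA4 counted here, 4 of 11 subunits were called higher, with a median of 0.09.

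**Figure D3:**
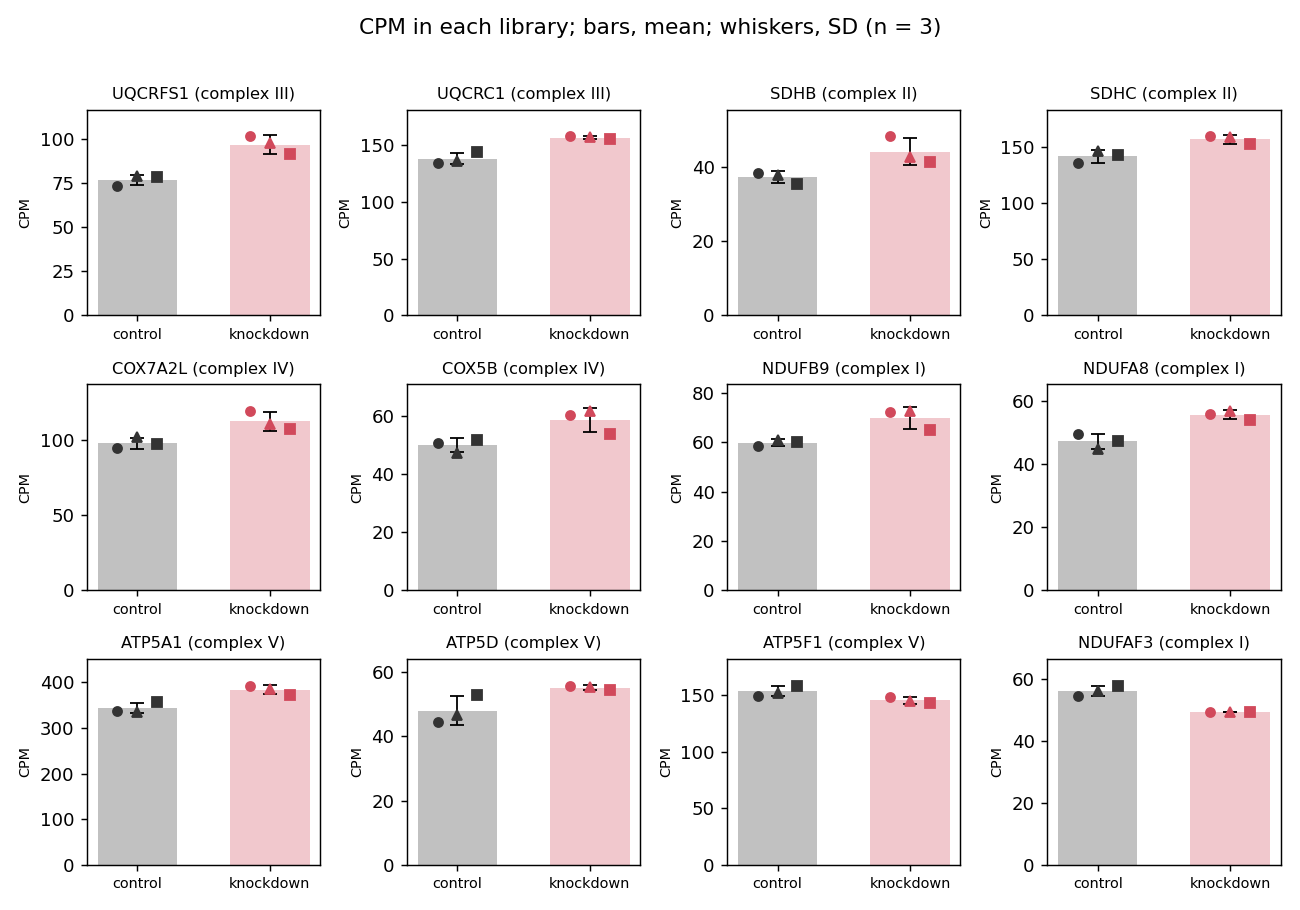
Level in CPM (y axis, from 0) of 12 genes in the control and knockdown groups (x axis); bars are means, whiskers SD (n = 3) and points single libraries, with circles, triangles and squares for replicates 1, 2 and 3. UQCRFS1 goes from 76.7 to 96.7 CPM, while ATP5F1 and NDUFAF3 are the panels in which knockdown libraries lie below control.

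Complex V, the ATP synthase, has a catalytic F1 head, a ring of c subunits that protons turn, a peripheral stalk and small membrane subunits. In the F1 head 2 of 4 genes rose. ATP5A1, the alpha subunit, was at 338, 335 and 356 CPM in control and 392, 386 and 373 CPM in knockdown. The groups did not overlap (log2 fold change 0.16, SE 0.0436, edgeR's adjusted p = 0.00479). ATP5D, the delta subunit, was at 44.4, 46.6 and 53.0 CPM in control and 55.7, 55.5 and 54.3 CPM in knockdown, so that control replicate 3 lay just under the knockdown libraries (log2 fold change 0.22, edgeR's adjusted p = 0.0085). The beta subunit ATP5B, which carries the catalytic sites, was at 410.4, 395 and 409 CPM in control and 435, 449.6 and 417 CPM in knockdown. All 3 knockdown libraries lay above control, yet the log2 fold change of 0.10 (95% interval 0.01 to 0.19) did not pass the adjusted test (edgeR's adjusted p = 0.08). It passed without knockdown replicate 3 (adjusted p = 0.0427). The gamma subunit ATP5C1 had 0.02 (-0.08 to 0.11).

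The c subunit is encoded by 3 genes whose products differ only in the part that is removed on import into mitochondria. Of these, ATP5G1 rose by a log2 fold change of 0.21 (edgeR's adjusted p = 0.00706) and ATP5G2 by 0.14 (adjusted p = 0.0135). ATP5G3 was at 172, 181 and 179 CPM in control and 179, 177 and 159 CPM in knockdown, with overlapping groups and a log2 fold change of -0.05 (95% interval -0.14 to 0.05). In the peripheral stalk, which holds the head still, ATP5H rose by 0.18 (edgeR's adjusted p = 0.0089), ATP5O by 0.17 (adjusted p = 0.00511) and ATP5J by 0.14 (adjusted p = 0.0392). ATP5F1, subunit b of the same stalk, was at 149, 152 and 158 CPM in control and 149, 144 and 143 CPM in knockdown. Its knockdown libraries were all below control, though control replicate 1 and knockdown replicate 1 were less than 1 CPM apart, and the log2 fold change of -0.07 (95% interval -0.16 to 0.02) did not pass the test (edgeR's adjusted p = 0.204). None of the 3 membrane accessory subunits ATP5I, ATP5J2 and ATP5L was called by edgeR, while 2 had an unadjusted p under 0.05 (log2 fold changes 0.13 and 0.11) and DESeq2 called 0. ATP5SL, now DMAC2 and known from the assembly of complex I, rose by 0.17 (edgeR's adjusted p = 0.00771).

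Without knockdown replicate 2, 5 of the 8 rises of complex V were called, and DESeq2 called 4. ATP5G1 (edgeR's adjusted p = 0.0705), ATP5G2 (0.12) and ATP5H (0.0527) lost their call there, and ATP5D (0.0943), ATP5G2 (0.0525) and ATP5SL (0.0958) lost theirs without control replicate 1. ATP5J lost its call without control replicate 2, control replicate 3, knockdown replicate 1 or knockdown replicate 3 (0.0667 to 0.125). Removal of the trend on length and GC content took the median log2 fold change of complex V from 0.14 to 0.0864. A few further genes of the ATP synthase fall outside the symbols used and were looked up after the symbols had been seen. The subunits C14orf2 and USMG5 had log2 fold changes of 0.06 (edgeR's adjusted p = 0.472) and 0.08 (adjusted p = 0.27). ATPIF1, the inhibitor that stops the enzyme from running backwards, fell from 78.9 ± 4.30 to 70.3 ± 2.39 CPM (log2 fold change -0.16, edgeR's adjusted p = 0.0154), a call lost without control replicate 2 (0.128), knockdown replicate 1 (0.0669) or knockdown replicate 2 (0.0616).

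**Figure D4:**
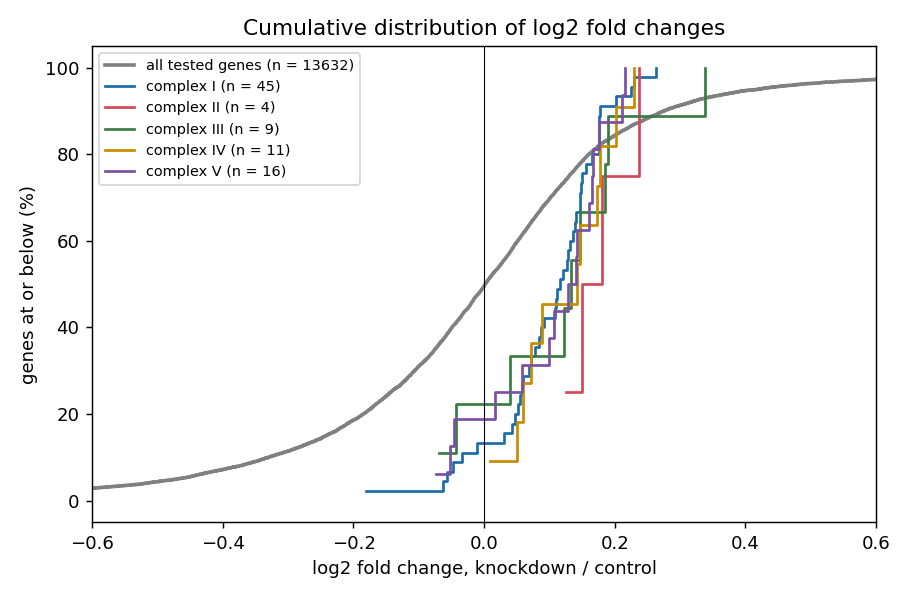
Percentage of genes at or below a log2 fold change of knockdown over control (x axis), for all 13632 tested genes and for the tested genes of each complex (lines). The lines of the complexes lie within the range of all genes and cross 50% between 0.12 and 0.17, where all genes cross near 0.

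Levels differed far more between genes of 1 complex than between the groups. On the scale of CPM per kilobase of exon (union of all exons, control libraries), tested structural subunits ran from 4.35 for NDUFS7 to 107 for NDUFS5 in complex I and from 9.997 for SDHC to 23.6 for SDHD in complex II. They ran from 8.40 for UQCRB to 71.4 for UQCR10 in complex III, from 19.7 for COX6C to 229.7 for COX8A in complex IV and from 19.4 for ATP5G1 to 174 for ATP5B in complex V. These levels depend on the exons counted: per kilobase of the longest transcript, the lowest in complex I was still NDUFS7 but at 8.75, and the highest in complex III was UQCRH at 109. The tested genes were shorter than others, with a median exon length of 2540 bases against 5130.5 over all tested genes with a known length, and were more abundant, with a median of 70.0 against 43.8 CPM. The called rises had a median length of 3286 bases and a median of 78.4 CPM, and the genes not called had 2298.5 bases and 60.7 CPM.

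Isoforms known from other tissues were at or near 0. COX4I2, COX6A2, COX7A1 and COX7B2, which replace common subunits in lung, heart and muscle or testis, had no count in any library. COX6B2 had 1 count in knockdown replicates 1 and 3 and 0 in the others, and COX8C had 0 to 2 counts a library. NDUFA4L2, a paralogue of NDUFA4 known from hypoxic cells, averaged 0.617 CPM in control libraries, averaged 0.721 CPM in knockdown libraries and was not tested. The common partners COX4I1 and COX8A stood near 116 CPM in control. ATP5E, the epsilon subunit of the F1 head, had only 3 to 6 counts a library and was not tested. The readthrough symbol SLMO2-ATP5E, which shares its exons, held 79.8 ± 4.05 CPM in control libraries and 82.9 ± 7.02 CPM in knockdown libraries (edgeR's adjusted p = 0.492). In the same way NDUFC2-KCTD14 held 37.4 ± 0.944 and 36.9 ± 3.61 CPM beside NDUFC2, whose log2 fold change was 0.05 (edgeR's adjusted p = 0.556). How reads were divided between such symbols is not known, and its part in the levels of ATP5E and NDUFC2 was not tested. Processed pseudogenes are named after 45 of the 97 genes, up to 17 for COX6C, and their reads may be split from or added to the parent. Of the tested genes, 16 have over 10% of exon bases under a gene of the other strand.

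Factors that assemble the complexes or feed them were read from lists of known genes. Each count of a list, here and below, is to be read beside the 15.3% of all tested genes called higher and 18.1% called lower. Of 27 tested assembly factors of complex IV, 8 rose and 1 fell, with a median log2 fold change of 0.13. Without knockdown replicate 2, 5 rose, and without control replicate 1 the fall, that of COX20, was lost (edgeR's adjusted p = 0.06). CMC1, a chaperone of the catalytic subunit COX1, rose from 11.7 ± 1.61 to 17.4 ± 2.02 CPM (log2 fold change 0.58, edgeR's adjusted p = 3.13e-04), and PNKD had 0.28 (adjusted p = 2.54e-04). Among 18 tested assembly factors of complex I, of which 8 carry a symbol of the set above, 3 rose and 3 fell. Both shares were close to those of all tested genes. COA1 fell from 79.6 ± 3.52 to 61.4 ± 1.06 CPM (log2 fold change -0.37, edgeR's adjusted p = 1.35e-06), and the other falls were NDUFAF3 and FOXRED1. FOXRED1 lost its call without control replicate 1 or 2 or knockdown replicate 1 or 3 (edgeR's adjusted p between 0.0644 and 0.149). The rises were NDUFAF2 and ATP5SL, described above, and TMEM186, which lost its call without control replicate 3 or knockdown replicate 1 or 2 (0.0779 to 0.181). Without control replicate 1 or knockdown replicate 1, 1 of these 3 rises was called. In complex III 1 of 6 factors rose, UQCC1 by 0.18 (edgeR's adjusted p = 0.00608), and in complex V 1 of 5, TMEM242 by 0.20 (adjusted p = 0.0305), a call lost without control replicate 3, knockdown replicate 1 or knockdown replicate 2 (0.09 to 0.143). None of 4 factors of complex II was called by edgeR (1 higher at an unadjusted p under 0.05, 0 by DESeq2), and SDHAF2, the most abundant, had 0.15 (adjusted p = 0.0812).

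**Figure D5:**
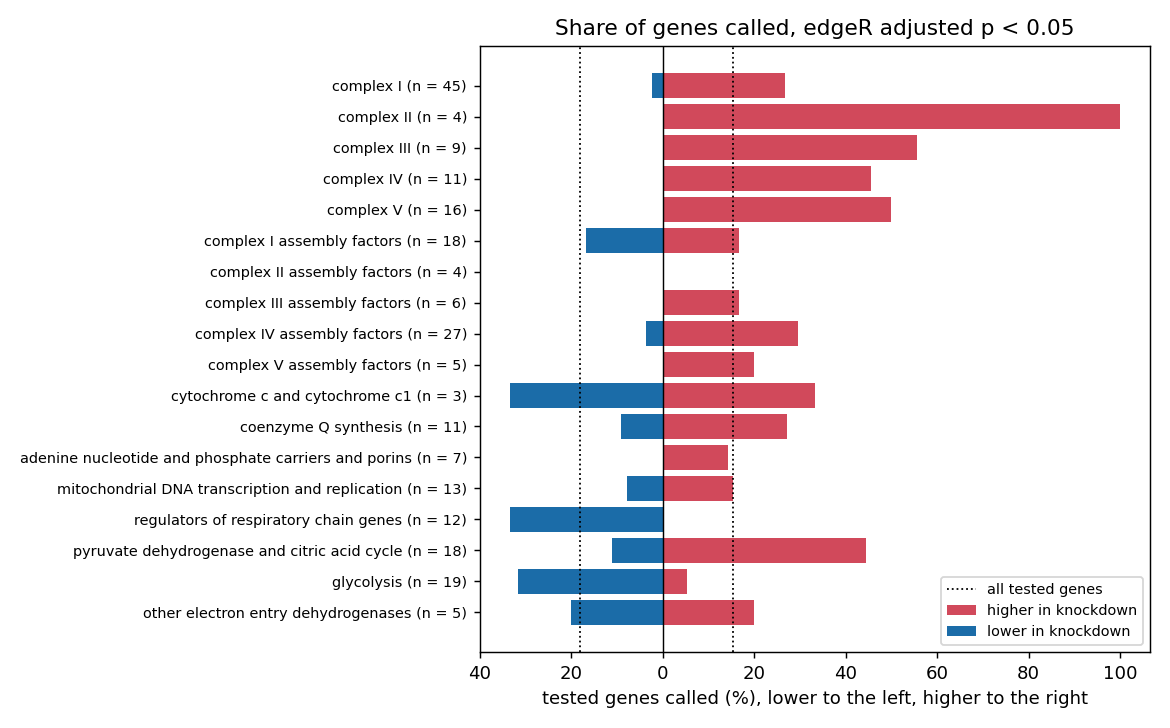
Percentage of tested genes called higher (right of 0) or lower (left of 0) in knockdown (x axis) for each complex and each list of genes around oxidative phosphorylation (y axis), with dotted lines at the 15.3% and 18.1% of all tested genes. The complex IV assembly list has 8 higher and 1 lower, the regulator list 0 higher and 4 lower, and glycolysis 1 higher and 6 lower.

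CYCS, which encodes cytochrome c, the mobile carrier between complexes III and IV, fell from 167 ± 4.32 to 153 ± 3.21 CPM (log2 fold change -0.13, edgeR's adjusted p = 0.018). HCCS, the enzyme that attaches its haem, rose from 40.7 ± 2.08 to 50.9 ± 4.09 CPM (log2 fold change 0.32, edgeR's adjusted p = 3.38e-04), and CYC1 of complex III had 0.11 (adjusted p = 0.0598). The call of CYCS was lost without control replicate 1, control replicate 2 or knockdown replicate 3 (0.0693 to 0.0759). Of 11 enzymes of coenzyme Q synthesis, COQ2, COQ5 and ADCK4 rose (ADCK4 not without control replicate 2 or 3 or knockdown replicate 1 or 2) and COQ9 fell from 33.3 ± 2.47 to 24.8 ± 1.74 CPM (log2 fold change -0.44, edgeR's adjusted p = 8.24e-05). VDAC2, an outer membrane porin, was the 1 of 7 carriers and porins that rose (log2 fold change 0.14, edgeR's adjusted p = 0.0131), and it lost its call without control replicate 1 (0.0721) or knockdown replicate 1 (0.0632). Of 5 other dehydrogenases that feed the chain, ETFB rose by 0.25 (edgeR's adjusted p = 0.0306) and GPD2 fell by 0.23 on the log2 scale (adjusted p = 9.68e-04). The call of ETFB was lost without control replicate 1 (0.163), knockdown replicate 1 (0.0799) or knockdown replicate 3 (0.106).

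Upstream of the chain, 8 of 18 genes of pyruvate dehydrogenase and the citric acid cycle rose and 2 fell. MDH2, the malate dehydrogenase of the cycle, rose from 161 ± 6.95 to 190.2 ± 4.07 CPM (log2 fold change 0.24, edgeR's adjusted p = 7.37e-05), and PDHA1 by 0.22 (adjusted p = 4.52e-04). In glycolysis 1 of 19 genes rose and 6 fell. HK1, the hexokinase that opens the pathway, fell from 213 ± 11.8 to 121 ± 5.80 CPM (log2 fold change -0.81, edgeR's adjusted p = 1.28e-14), and TPI1 from 281 ± 5.48 to 223 ± 13.7 CPM (log2 fold change -0.34, adjusted p = 9.45e-07). Without control replicate 1, knockdown replicate 1 or knockdown replicate 2, only 4 of the 8 rises in the first list were called, with DLST, PDHX, SUCLA2 and SUCLG1 lost each time. Its 2 falls, IDH2 and SUCLG2, were both lost without control replicate 3, knockdown replicate 1 or knockdown replicate 2, and DESeq2 called 4 higher and 0 lower. In glycolysis 4 genes were called higher without control replicate 3 and 0 without knockdown replicate 3. The median over the glycolysis list was -0.02 and that over the citric acid cycle list 0.08.

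Of 12 tested regulators known to act on respiratory genes, 0 were called higher and 4 lower by edgeR, with a median log2 fold change of -0.12. At an unadjusted p under 0.05, 0 were higher and 5 lower, beside 20.5% and 22.4% of all tested genes, and DESeq2 called 0 and 3. GABPB1, a subunit of GA-binding protein, fell from 63.6 ± 2.695 to 49.7 ± 0.965 CPM (log2 fold change -0.36, edgeR's adjusted p = 7.47e-06). SP1 fell from 214 ± 4.47 to 172 ± 9.33 CPM (log2 fold change -0.31, edgeR's adjusted p = 2.44e-06). NRF1 and PPRC1 fell by 0.25 and 0.21 on the log2 scale, whereas YY1 lay at -0.02 (edgeR's adjusted p = 0.741). NRF1 lost its call without control replicate 1 (0.165), control replicate 2 (0.0561) or knockdown replicate 3 (0.069). In mitochondrial DNA transcription and replication, TFAM, which packages and transcribes that genome, fell from 105 ± 7.18 to 83.5 ± 2.09 CPM (log2 fold change -0.33, edgeR's adjusted p = 5.81e-06). POLRMT rose by 0.19 (edgeR's adjusted p = 0.0109) and lost its call without knockdown replicate 3 (0.0533). C10orf2, the helicase Twinkle, rose by 0.20 (edgeR's adjusted p = 0.0294), and lost its call without control replicate 2 or 3 or knockdown replicate 2 or 3 (0.0635 to 0.0998). These were the called genes among 13 tested.

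Of the 69 tested genes with a RefSeq promoter, 15 held the core of nuclear respiratory factor 1 (21.7%, against 6.57% of the 10130 promoters found for tested genes by the same symbol and 4.13% of all 27305). The ETS core was in 20 (28.99%, against 19.1% and 10.7%) and the YY1 core in 20 (28.99%, against 10.2% and 5.72%). Many of the YY1 matches begin after the start of the gene, as in SDHB at position 13. The window may reach coding bases there, and the part of this in the YY1 counts was not tested. The box CCAAT, searched for comparison, was in 23 (33.3%, against 36.7% and 35.7%). Both strands were searched, and promoters of genes that share a start region may share a match. Among the 28 called rises with a promoter, 7 held the first core, 9 the ETS core and 6 the YY1 core, and among the other 41 genes 8, 11 and 14. The motifs are a description of the letters in these windows.

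The word TCATCCA in 3′ UTRs was singled out in earlier results of these data, and its place among respiratory genes was looked up for that reason. Few respiratory genes hold it: 5 of 85 (5.88%), against 1742 of 12530 tested genes with a 3′ UTR (13.9%), where the median 3′ UTR was 632 bases for the respiratory genes and 1683 bases for all. The longest 3′ UTR annotated for each gene was searched, and whether these cells use that form is not known. Over all genes the median log2 fold change was -0.09 with the word and 0.02 without it. Over the respiratory genes it was 0.15 with the word and 0.13 without. Since the word was picked from results of these data, the gap over all genes is not independent of that choice. The sites shown here, on GRCh38 with the word in capitals, are those of SDHC, which rose, and of 3 genes that did not pass the test.
SDHC (chr1:161374358-161374386, plus strand): ctaacaggattTCATCCAaccaagctact
ATP5G3 (chr2:175177353-175177381, minus strand): cataatatctaTCATCCAagtttcagggt
NDUFAF4 (chr6:96890149-96890177, minus strand): aaattgccattTCATCCAttttagcaaat
NDUFAF5 (chr20:13820341-13820369, plus strand): tagtaccatttTCATCCActaggtggaag
NDUFB9, the fifth gene, rose as well. The difference between respiratory genes and other genes without the word was not tested.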

How the data were processed

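RNA-seq libraries of 3 control and 3 knockdown samples were compared. Per the labels' protocols, 700 ng of total RNA went into each directional library. Per the submitters' processing notes, STAR 2.7.10a, Trim Galore 0.6.6, bedtools and the hg38 build were used. The sources used here do not give how reads were counted, with which strand setting, or on which gene models. The authors deposited whole-number read counts per gene symbol, not normalised, in 1 table per sample. Each table has 26485 symbols.

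From these counts, filterByExpr of edgeR 4.0.16 (R 4.3.3) kept 13632 genes, with 99.858% to 99.869% of the counts of a library. TMM factors lay between 0.9797 and 1.015, and glmQLFit and glmQLFTest compared the groups with no covariate. Benjamini-Hochberg adjustment covered all 13632 genes, and an adjusted p under 0.05 was called. The standard error is the size of the log2 fold change divided by the square root of F. Intervals are at 95% and not adjusted. CPM use the TMM-adjusted library size. Coordinates, lengths and overlaps come from GENCODE 29 on GRCh38, in which 24599 symbols were found.

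The alternatives were scaling by library size, RLE or the upper quartile, no filter, 1 CPM in 3 libraries, DESeq2 1.42.0, limma-voom (limma 3.58.1), the replicate number as a block, each library left out, an adjusted p under 0.01, and removal of the trend on length and GC content (loess with span 0.5, for the 97.6% of genes with both). Genes named are the called genes of the set, in each complex the most abundant and the largest changes, up to 2 called genes of each other list, COMMD3, BMI1, and isoforms at or near 0; the text adds others as examples. The members and lists were chosen with earlier results of these data known. The core of nuclear respiratory factor 1 was shortened to 7 letters after a longer form, found in fewer promoters, had been searched. Values of 1 gene of the set are not reported here. The test was checked on simulated counts. It recovered 18% of genes changed 1.1-fold, 48% at 1.2-fold, 82% at 1.5-fold and 90% at 2-fold. Only 50 genes were changed at each fold among 13473, drawn from genes of all levels, while 33.3% of genes were called in the data. The adjustment therefore worked under other conditions, and the rates may not hold for the genes of this set. A gene that did not pass may still differ by a small amount. Replicate pairs differed by a chi-square of 1.234 to 2.051 per degree of freedom, so none agreed within sampling noise.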

Additional observations from a re-analysis of the deposited data

How the results depend on the processing

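None of the genes recomputed under each of the 16 alternatives (the 35 called genes of the set and those the naming rule adds) reversed, and 10 of the 35 kept their call in all of them. Other genes named as examples were not followed in this way. Leaving out 1 library at a time gave 22 to 39 called rises (34 with all), where 11.6% to 14.3% of all genes were called higher. These runs gave 0 to 1 called falls (0 without control replicate 3), where 1949 to 2333 of all genes were called lower. By complex, the rises ranged from 5 to 16 in complex I, 2 to 4 in II, 3 to 5 in III, 4 to 6 in IV and 5 to 9 in V, and the called falls of complex I from 0 to 1. The median of complex III ranged from 0.10 to 0.17. Rises in the other lists ranged from 17 to 26 (28 with all), beside the 11.6% to 14.3% of all genes called higher (15.3% with all). Genes lower in every knockdown library ranged from 2 to 4. Shares of all genes with that pattern are not given here for the alternatives. With DESeq2 the rises were 14 in all, 2 in complex I, 1 in II, 3 in III and 4 in V, with 0 falls, and 13 in the other lists. At an adjusted p under 0.01, 8.98% of all genes were higher and 1719 of 13632 were lower. The rises there were 20, 4 in complex I and 3 in complex III, with 0 falls, and 14 in the other lists. With the trend on length and GC content removed, 26 genes were called higher and 2 lower, beside 14.9% and 19.4% of all genes. Of the falls 1 was in complex V, and 3 rises were left in complex IV. The log2 fold change was above 0 for 70 of the 85 genes, and for 48.5% of all genes. The medians were then 0.0885 for all 85 genes, 0.0834 for complex I, 0.0789 for III and 0.0864 for V, and 4 genes were lower in every knockdown library. Upper-quartile and library-size scaling each left 1 such gene, and library-size scaling called 20 complex I genes and 18.4% of all genes higher. Same-numbered libraries correlated by 0.00548 to 0.0792 in their deviations from the group means, and different-numbered ones by -0.104 to 0.0387. Whether the replicate numbers mark pairs was not tested. With the replicate block 45 genes were called higher, 19 of them in complex I, as were 18.0% of all genes. The cause of these shifts was not tested. Depth limits the genes of low level, such as UQCRHL (SE 0.176).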
